A study of Mus musculus with 6 samples.

Results

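Genomic imprinting marks the copies of some genes in the germ line, so that in most tissues either the maternal or the paternal copy is read. Many imprinted genes control growth: IGF2 is a growth factor read from the paternal copy, whereas the H19 RNA, the cell cycle inhibitor CDKN1C and the adaptor GRB10 are read from the maternal copy and restrain growth in most tissues. In skeletal muscle, imprinted genes are active during development and again in satellite cells, the muscle stem cells (MuSCs) that repair fibres. Here 10 imprinted genes were taken by their symbols from the deposited RNA-seq table, and all 10 were found among its 22706 genes: H19, Igf2, Cdkn1c, Dlk1, Meg3, Rian, Mirg, Peg3, Plagl1 and Grb10.

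RNA was sequenced from freshly sorted MuSCs in 6 libraries, 2 in each of 3 groups. Control MuSCs came from wild-type mice. The mdx group carries the dystrophin mutation of that name, and Sirt6mKO/mdx mice carry it together with Pax7-ICNCre and Sirt6 fl/fl. The labels name C57BL/6 as the strain of every sample, while the methods describe the mdx line as C57BL/10ScSn-Dmdmdx/J. Cre in this line is driven from Pax7 and is constitutively active, so that the MuSCs and the fibres that descend from them can both be recombined. Cells were taken from limb and trunk muscle after removal of Sca1, CD45 and CD31 positive cells. Per the methods they were then sorted for Integrin-a7 with CD34, or for a GFP or YFP reporter of Pax7 cells. The labels give neither age nor sex, although the study describes adult male mice, and do not say whether a library came from 1 animal or a pool, so p-values measure only the spread between libraries of a group.

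The values below are normalised read counts, read counts divided by a factor for each library, and about 4397707 to 9744362 reads per library lie behind them. Xist, expressed from the inactive X, had 16772 and 12950 in the control libraries, whereas mdx had 7 and 8 and Sirt6mKO/mdx 33 and 34. The Y-linked gene Ddx3y had 3 and 8 in control, against 1024 and 1055 in mdx and 1555 and 1767 in Sirt6mKO/mdx. Eif2s3y, Uty and Kdm5d, also Y-linked, had 0 to 13 in control and 207 to 693 in the other 4 libraries. Both control libraries go against the male sex that the study describes. The sex of the cells therefore moved with the genotype, and in each comparison with control the genotype and the sex cannot be told apart. For Sirt6, the libraries labelled Sirt6mKO/mdx had 37 and 30, mdx 33 and 40 and control 41 and 32, at a log2 fold change of -0.12 against mdx (SE 0.50, limma with Benjamini-Hochberg adjusted p 0.912). The whole gene was counted, including exons outside the floxed part, on about 16 to 51 reads per library. A loss of Sirt6 was not seen at this level. The paper reports efficient deletion by genotyping PCR in MuSCs of Sirt6mKO mice. It also reports higher Sirt6 in mdx MuSCs by RT-qPCR. The MuSC marker Pax7 lay between 2167 and 3236 in all 6 libraries. Of 12 MuSC markers the syndecan Sdc4 was called in each comparison and the others in none. Over all genes 14.2% were called in mdx against control, 8.17% in Sirt6mKO/mdx against mdx and 7.87% in Sirt6mKO/mdx against control. With a library left out, Sdc4 stayed called in mdx against control, but not in every fit of the other comparisons.

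A gene was called when limma, fitted to log2(value + 1) of the 15915 genes with a mean of at least 5, gave an adjusted p of at most 0.05 and a log2 fold change of at least 1 in size. All fold changes are on that log2(value + 1) scale.

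The H19 and Igf2 genes lie 72.6 kb apart on chromosome 7 and share enhancers and an imprinting control region. Each is known to host a microRNA (miRNA), and the mature sequences from RefSeq (GRCm38.p6) are shown because they tie these transcripts to a second kind of product. They are written 5′ to 3′ with the seed, bases 2 to 8, in capitals.
mmu-miR-675-5p: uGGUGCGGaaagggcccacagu
mmu-miR-675-3p: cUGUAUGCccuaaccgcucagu
mmu-miR-483-5p: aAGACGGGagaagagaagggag
mmu-miR-483-3p: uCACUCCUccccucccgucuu
The hairpin of miR-675 lies in H19 and that of miR-483 in Igf2. The pair in H19 and the pair in Igf2 have 4 different seeds between them.

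Dlk1, Meg3, Rian and Mirg lie in the Dlk1-Dio3 domain of chromosome 12, where the protein-coding genes Dlk1, Rtl1 and Dio3 are read from the paternal copy and the long noncoding RNAs, with many snoRNAs and miRNAs, from the maternal copy. Of 46 miRNA rows of the table in this domain, 39 could be matched by position and strand to a RefSeq hairpin, and their 74 mature sequences carry 67 different seeds. The miRNAs of Mir494, Mir495 and mmu-mir-381 are shown because their rows had the lowest fold changes of called miRNA genes in mdx, and those of Mir758, chosen after its values were seen, because its row held the most reads of the called miRNA genes.
mmu-miR-494-5p: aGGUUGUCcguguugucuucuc
mmu-miR-494-3p: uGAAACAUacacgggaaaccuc
mmu-miR-495-5p: gAAGUUGCccauguuauuuuucg
mmu-miR-495-3p: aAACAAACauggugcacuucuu
mmu-miR-381-5p: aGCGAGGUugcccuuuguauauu
mmu-miR-381-3p: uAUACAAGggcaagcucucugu
mmu-miR-758-5p: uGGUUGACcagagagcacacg
mmu-miR-758-3p: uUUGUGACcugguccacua
Of these 8 seeds, that of miR-758-5p recurs in another miRNA of the domain, miR-1197-5p.

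In mdx against control, 6 of the 10 imprinted genes were called, where 14.2% of all tested genes were. In the alternative fits of the last section this count was as low as 1, with 1 prior variance, where 541 of all genes were called. H19, Igf2, Cdkn1c and Plagl1 rose (4 of 10, against 6.89% of all genes called higher), and Rian and Mirg fell (2 of 10, against 7.34% called lower). The mdx and control libraries did not overlap for 9 of the 10, against 57.0% of all genes. The genes that rose encode a growth factor, a growth-restraining RNA, a cell cycle inhibitor and a transcription factor, and the genes that fell are both maternal noncoding RNAs of the Dlk1-Dio3 domain. The median log2 fold change of the 10 genes was -0.03, beside 0.00070 over all genes.

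**Figure D1:**
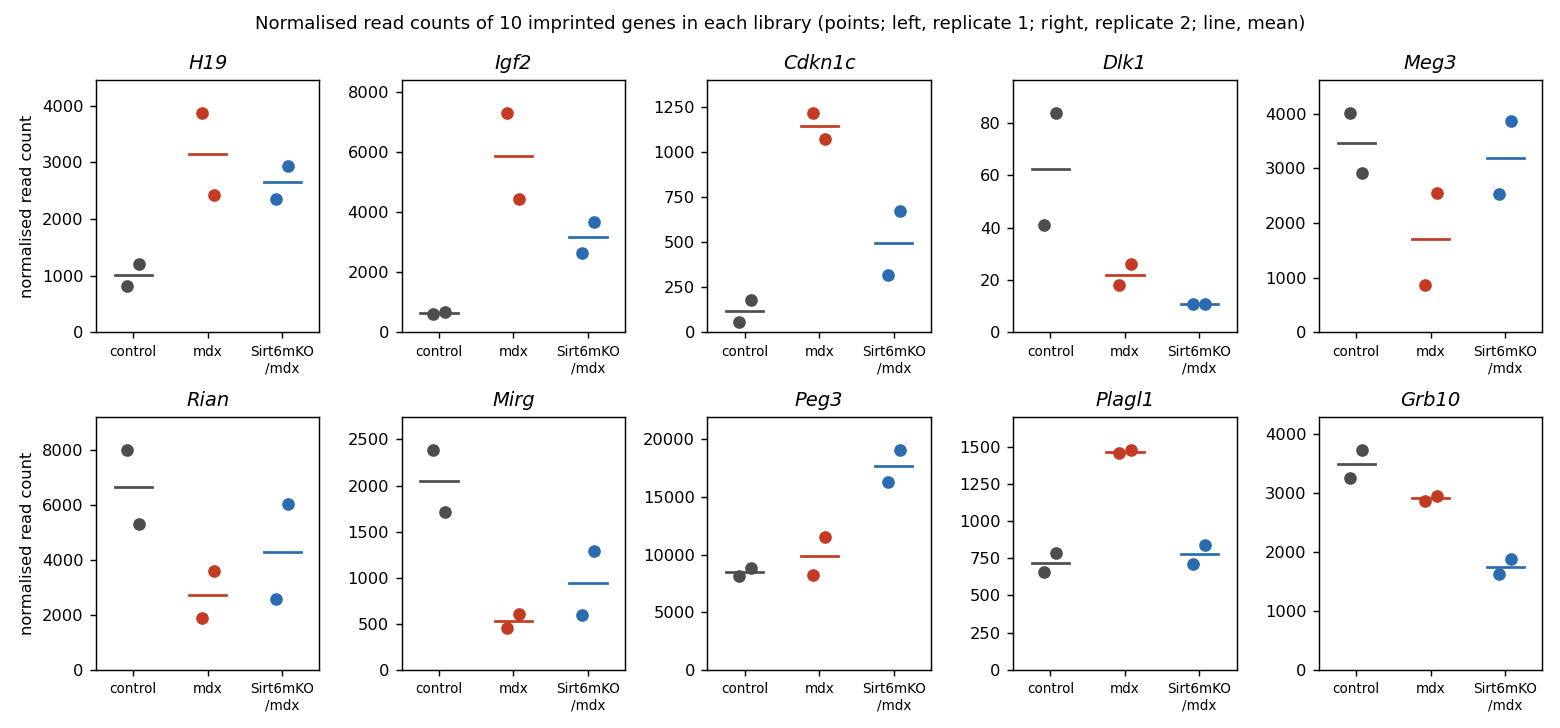
Normalised read counts (y axis, from 0) of the 10 imprinted genes in each library, by group (x axis). Points are libraries and lines are group means. The mdx libraries lie above both control libraries for Igf2 (4419 and 7301 against 621 and 686), and below them for Mirg (458 and 607 against 2385 and 1714).

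Igf2 (ENSMUSG00000048583; GRCm38 chromosome 7, 142650766 to 142666816, minus strand), a growth factor for muscle and other tissues, had normalised read counts of 621 and 686 in control, against 7301 and 4419 in mdx and 2637 and 3679 in Sirt6mKO/mdx. The 3 groups did not overlap: control was lowest and mdx highest. Igf2 rose 8.69-fold in mdx (log2 fold change 3.12, SE 0.31, limma adjusted p 8.2e-06) and was 4.77-fold higher in Sirt6mKO/mdx than in control (2.25, SE 0.31, adjusted p 0.00031). Against mdx, the libraries labelled Sirt6mKO/mdx were at -0.87 (95% interval -1.52 to -0.22, adjusted p 0.0902), which did not pass the threshold. Igf2 ranked 1465th of all genes by mean value in control and 92nd in mdx.

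H19 (ENSMUSG00000000031; chromosome 7, 142575529 to 142578143, minus strand), a noncoding RNA of its own transcription unit, had 826 and 1211 in control, against 3875 and 2422 in mdx and 2352 and 2941 in Sirt6mKO/mdx. Both mutant groups lay above control, and they overlapped each other. H19 rose 3.06-fold in mdx (log2 1.61, SE 0.31, limma adjusted p 0.00235) and 2.63-fold in Sirt6mKO/mdx against control (1.39, SE 0.31, adjusted p 0.0113), a call lost without control replicate 1 and without either Sirt6mKO/mdx replicate (adjusted p 0.0713, 0.0549 and 0.193) and under scaling to the same total (0.79, adjusted p 0.103). The difference between the mutant groups was -0.22 (95% interval -0.87 to 0.43). Without mdx replicate 1 the call in mdx was lost at an adjusted p of 0.052.

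The neighbours can also be compared within a library, where the scaling of the library has no part. Igf2 was 0.752 and 0.566 times H19 in control, 1.88 and 1.82 times in mdx and 1.12 and 1.25 times in Sirt6mKO/mdx. The ratio was thus below 1 in control and above 1 in both other groups, with no overlap between the 3 groups. With 2 libraries a group, an exact permutation test of such a ratio cannot pass 0.05, and none was made. Per kilobase of exons, H19 was the higher in each group, at means of 414 against 114 in control, 1280 against 1024 in mdx and 1076 against 552 in Sirt6mKO/mdx, although the libraries of both genes overlapped in mdx.

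The row of Mir483, within Igf2, had 0 and 3 in control, against 10 and 15 in mdx and 26 and 93 in Sirt6mKO/mdx. It was called in Sirt6mKO/mdx against control (log2 4.65, SE 0.93, limma adjusted p 0.00631). With so few reads in control, the size of this fold change depends on the pseudocount. Its highest values were in Sirt6mKO/mdx, though that group was not called against mdx (1.93, adjusted p 0.213). It was chosen after its values were seen. The row of such a gene counts reads at the hairpin in a total RNA library, and reads of the host and of the miRNA cannot be told apart. Igf2 also overlaps the exons of the antisense gene Igf2os, and the use of strand in counting is not given in the sources used here.

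**Figure D2:**
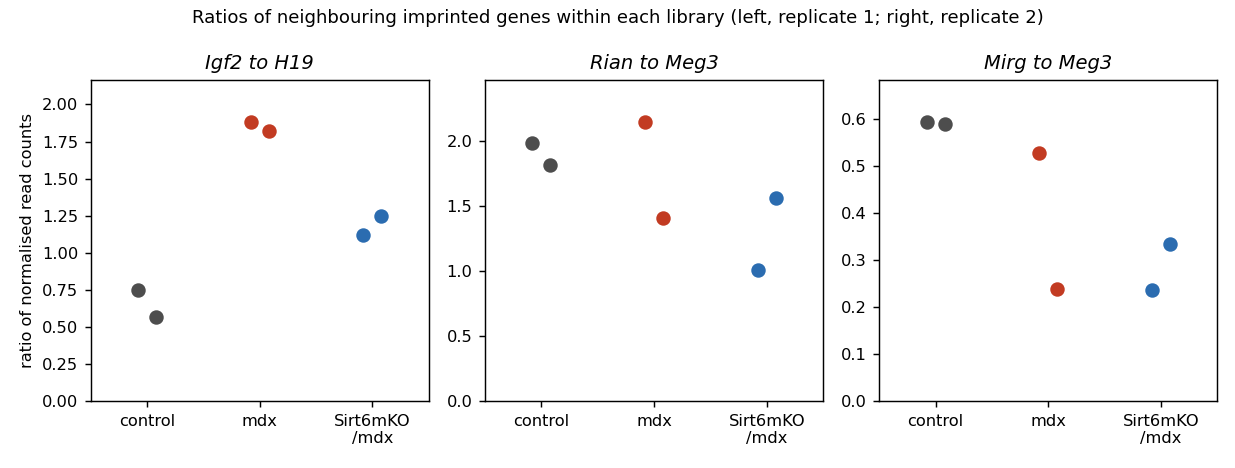
Ratios of normalised read counts (y axis, from 0) of neighbouring genes within each library, by group (x axis). Each point is a library. Igf2 to H19 separates the 3 groups, from 0.566 and 0.752 in control to 1.82 and 1.88 in mdx, while Rian to Meg3 and Mirg to Meg3 overlap between mdx and Sirt6mKO/mdx.

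Cdkn1c (ENSMUSG00000037664; chromosome 7, 143458350 to 143461050, minus strand) encodes p57, which blocks cyclin-dependent kinases and is used by muscle precursors when they leave the cell cycle. It had 57 and 180 in control, against 1218 and 1072 in mdx and 317 and 674 in Sirt6mKO/mdx. The groups did not overlap, and control was again lowest and mdx highest. Cdkn1c rose 11.2-fold in mdx (log2 3.48, SE 0.43, limma adjusted p 7.6e-05). It was called with any 1 library left out, but its size rests on the control libraries, at 2.66 without control replicate 1 and 4.30 without control replicate 2. It was 4.52-fold higher in Sirt6mKO/mdx than in control (2.18, SE 0.43, adjusted p 0.00606), a call lost without Sirt6mKO/mdx replicate 2 (adjusted p 0.195), and this size too rests on the control libraries, at 1.36 without control replicate 1 and 3.0 without control replicate 2. Against mdx it was at -1.30 (95% interval -2.22 to -0.38, adjusted p 0.0731), past the fold but not the p, and was called there without control replicate 1 (adjusted p 0.0185) or 2 (0.0282).

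Markers of proliferation moved beside this inhibitor. Of 6 listed, 5 rose in mdx against control, among them Bub1, Top2a, Mki67 and Cdk1 (6.89% of all genes were called higher), and 3 fell in Sirt6mKO/mdx against mdx, Mcm5, Top2a and Mki67 (2.54% called lower). The sixth, Ccnb1, had 6 and 14 in control, against 22 and 26 in mdx and 34 and 35 in Sirt6mKO/mdx and was not called. In Sirt6mKO/mdx against control Bub1 was called higher, where 5.19% of all genes were, a call lost in most fits without a library. In the other comparisons, Cdk1 lost its rise in 4 of 6 such fits and Mcm5 its rise in 3 and its fall in 3. Bub1 lost its rise in mdx in 1, and Top2a and Mki67 their falls in 4. The summed level of the 6 markers was 156 and 270 in control, against 809 and 1330 in mdx and 303 and 555 in Sirt6mKO/mdx. Cdkn1c and Igf2 shared this order of groups. The part of the share of dividing cells in the values of either gene was not tested.

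Plagl1 (ENSMUSG00000019817; chromosome 10, 13090691 to 13131694, plus strand) encodes a zinc finger transcription factor that binds several other imprinted genes. It had 656 and 783 in control, against 1457 and 1477 in mdx and 709 and 841 in Sirt6mKO/mdx. The mdx libraries stood above the other 4, which overlapped. Plagl1 rose 2.05-fold in mdx (log2 1.03, SE 0.24, limma adjusted p 0.00922), just past the fold that a call needs. The call was lost without control replicate 1 (0.90, adjusted p 0.0609), without mdx replicate 1 (adjusted p 0.0687) and without mdx replicate 2 (0.0631). In Sirt6mKO/mdx it was 1.90-fold lower than in mdx with an adjusted p of 0.0279, but its log2 fold change of -0.92 (SE 0.24) fell short of the fold, and against control it was at 0.11 (95% interval -0.41 to 0.62), a direction that turned when each library was scaled to the same total (-0.50).

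Of the long noncoding RNAs Meg3, Rian and Mirg of the Dlk1-Dio3 domain, Mirg and Rian were called lower in mdx, Rian near the threshold, and Meg3 was not called. Rian (ENSMUSG00000097451; chromosome 12, 109603940 to 109661716, plus strand), a host of box C/D snoRNAs, had 8000 and 5291 in control, against 1868 and 3597 in mdx and 2558 and 6047 in Sirt6mKO/mdx. Mirg (ENSMUSG00000097391; 109729764 to 109749460, plus strand), which hosts miRNAs, had 2385 and 1714 in control, against 458 and 607 in mdx and 594 and 1292 in Sirt6mKO/mdx. Meg3 (ENSMUSG00000021268; 109541001 to 109571726, plus strand), the most upstream of the maternal RNAs, had 4020 and 2910 in control, against 868 and 2546 in mdx and 2523 and 3863 in Sirt6mKO/mdx. In all 3 genes both mdx libraries lay below both control libraries, and within mdx and within Sirt6mKO/mdx replicate 2 was the higher.

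Mirg fell 3.83-fold in mdx (log2 -1.94, SE 0.33, limma adjusted p 0.00107) and was called with any 1 library left out. It was 2.31-fold lower in Sirt6mKO/mdx than in control (-1.21, SE 0.33, adjusted p 0.0336), a call that was lost in 5 of 6 fits that left out a library, among them that without Sirt6mKO/mdx replicate 1 (-0.65, adjusted p 0.36). Rian fell 2.51-fold in mdx (-1.33, SE 0.42, adjusted p 0.0441), close to the threshold, and this call also was lost in 5 of 6 such fits, with adjusted p of 0.0555 to 0.387. It was kept without Sirt6mKO/mdx replicate 1 (0.049). Meg3 was at -1.20 in mdx (SE 0.41, adjusted p 0.0591) and was not called, and its size rests on single mdx libraries: without mdx replicate 2 it was called (-1.98, adjusted p 0.0117), and without mdx replicate 1 it was at -0.43 (adjusted p 0.596). Against mdx, the libraries labelled Sirt6mKO/mdx were at 1.07 for Meg3 (95% interval 0.19 to 1.95), 0.73 for Mirg (0.03 to 1.44) and 0.60 for Rian (-0.30 to 1.51, a direction that turned under scaling to the same total), and none of these was called. Over the fits without a library, Meg3 ran from 0.29 without mdx replicate 1 (adjusted p 0.749) to 1.85 without mdx replicate 2 (adjusted p 0.0323, a call), and Mirg from 0.17 without Sirt6mKO/mdx replicate 2 to 1.29 without Sirt6mKO/mdx replicate 1.

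The 3 RNAs did not keep a fixed ratio. Rian was 1.99 and 1.82 times Meg3 in control, 2.15 and 1.41 times in mdx and 1.01 and 1.57 times in Sirt6mKO/mdx. Mirg was 0.593 and 0.589 times Meg3 in control, 0.528 and 0.238 times in mdx and 0.235 and 0.334 times in Sirt6mKO/mdx. Relative to Meg3, the downstream Mirg was lower in all 4 mutant libraries than in both control libraries. Meg3, Rian and Mirg overlap small RNA genes in their exons, and per the methods reads assigned to more than 1 gene were left out of the counts.

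Dlk1 (ENSMUSG00000040856; chromosome 12, 109452823 to 109463336, plus strand) encodes a membrane protein of the Notch ligand family that acts on muscle growth and on satellite cells. It was the weakest of the 10 genes, with 41 and 84 in control, against 18 and 26 in mdx and 11 and 11 in Sirt6mKO/mdx, and the last 2 values stand for about 7 and 6 reads. The 3 groups did not overlap, and Sirt6mKO/mdx was lowest. Dlk1 fell 4.98-fold in Sirt6mKO/mdx against control (log2 -2.32, SE 0.61, limma adjusted p 0.028), a call lost in 5 of 6 fits without a library, with adjusted p up to 0.203. In mdx it was at -1.40 (95% interval -2.69 to -0.10, adjusted p 0.131), and Sirt6mKO/mdx was at -0.92 against mdx (-2.21 to 0.38).

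The whole domain can be read row by row. From the start of Dlk1 to the end of Dio3, a span of 828.3 kb, the table holds 73 rows, and 65 passed the minimum mean. In mdx against control, 59 of the 65 had a log2 fold change below 0, at a median of -1.28, and 14 were called, all lower (background 7.34% of all genes called lower). Against mdx, in Sirt6mKO/mdx, 49 of 65 were above 0, at a median of 0.83 beside 0.02 over all genes, and 4 were called, all higher. This count is near the share of all genes called higher (background 5.62% called higher and 2.54% called lower). Under scaling to the same total 2 rows were called, both higher, where 3.01% of all genes were called higher and 18.4% lower. At an unadjusted p under 0.05 there were 4 rows in place of 15, where 5997 in place of 4004 of the 15915 genes were. The median of all genes was -0.58 under that scaling, and that of the rows is not given here. Against control, in Sirt6mKO/mdx, 5 rows were called lower and 3 higher (background 2.68% and 5.19%), at a median of -0.75. Under scaling to the same total that split became 17 lower and 2 higher, where 16.9% and 2.86% of all genes were called. Rows of 1 domain share transcripts and are not independent. The count of 14 fell in every fit without a library but that without Sirt6mKO/mdx replicate 1. In those fits the calls over all genes fell too, except without control replicate 2. The count of 4 fell without any 1 of the mdx or Sirt6mKO/mdx libraries, as did the calls over all genes. The count of 8 fell in each of the 6 fits without a library. The calls over all genes fell in these fits too, except without control replicate 1.

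**Figure D3:**
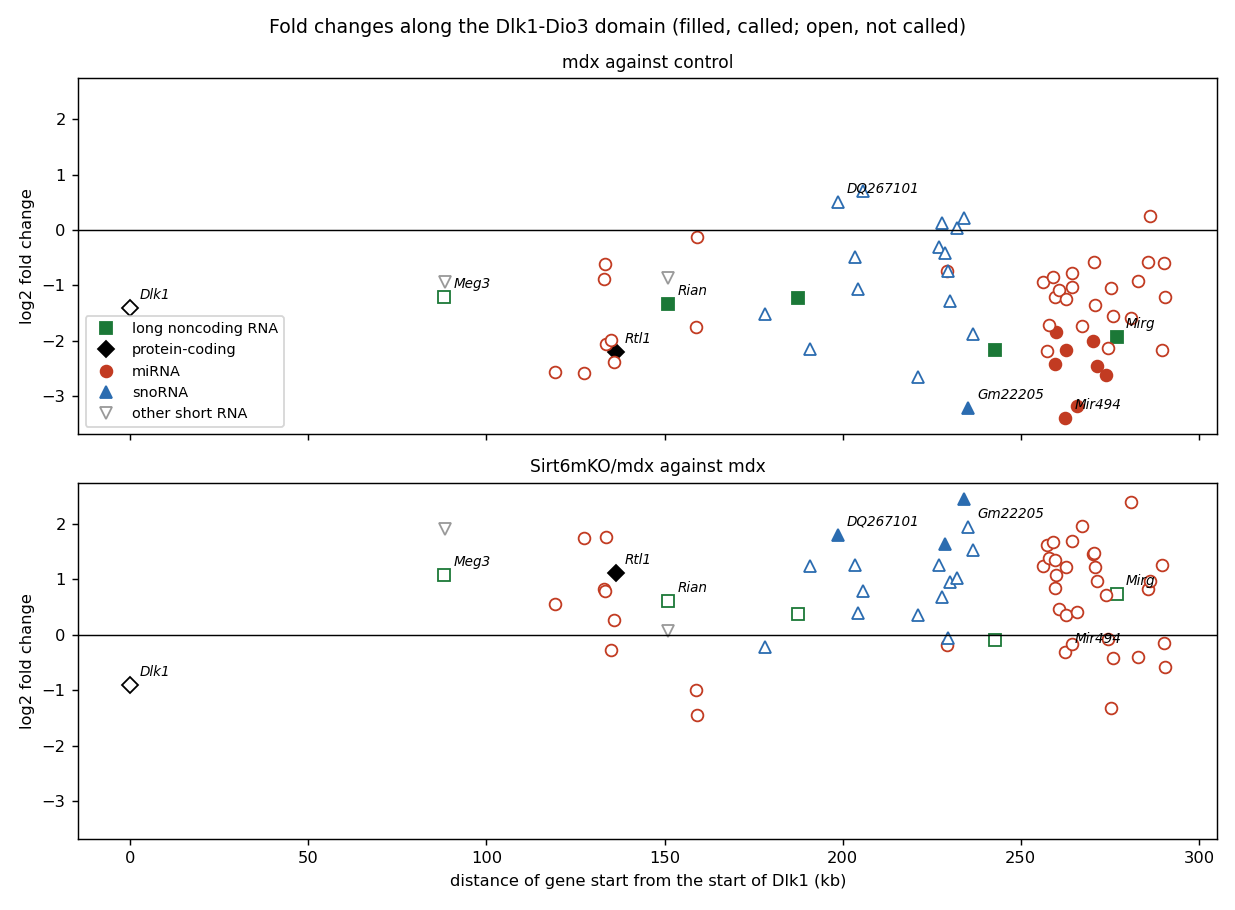
Log2 fold change (y axis) of the 65 tested rows of the Dlk1-Dio3 domain against the distance of the gene start from the start of Dlk1 in kb (x axis), for mdx against control (top) and Sirt6mKO/mdx against mdx (bottom). Filled symbols were called. In the top panel 59 of 65 rows lie below 0, and in the bottom panel 49 lie above it.

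Rtl1 (ENSMUSG00000085925; chromosome 12, 109589194 to 109600330, minus strand), a retrotransposon-derived paternal gene that acts in muscle development, lies opposite to the maternal RNAs. It had 949 and 855 in control, against 154 and 246 in mdx and 297 and 598 in Sirt6mKO/mdx. The 3 groups did not overlap, with mdx lowest. Rtl1 fell in mdx (log2 -2.20, SE 0.32, limma adjusted p 0.00033), was higher in Sirt6mKO/mdx than in mdx (1.11, SE 0.32, adjusted p 0.0449) and lower than in control (-1.09, SE 0.32, adjusted p 0.0478). With a library left out, the call against control was lost in all 6 fits (adjusted p 0.0637 to 0.408) and that against mdx in 4, among them without mdx replicate 1 (0.362) and Sirt6mKO/mdx replicate 2 (0.381). Under scaling to the same total the difference from mdx was 0.49 with an adjusted p of 0.348. Without strand, reads of Rtl1 and of RNA from the opposite strand cannot be told apart.

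The miRNA rows of the domain were low, with summed levels of 1376 and 1079 in control, against 330 and 429 in mdx and 458 and 1164 in Sirt6mKO/mdx. Of the 46 rows, 40 were tested, 39 had a fold change below 0 in mdx, and 8 were called lower, beside 7.34% of all genes. Mir494 had 85 and 40 in control, against 3 and 7 in mdx and 2 and 6 in Sirt6mKO/mdx, at a log2 fold change of -3.39 in mdx (SE 0.85, limma adjusted p 0.0132) and of -3.70 in Sirt6mKO/mdx against control (adjusted p 0.0144). Mir495 had 60 and 15 in control and 2 to 6 in the other 4 libraries, mmu-mir-381 had 39 and 30 in control and 2 to 10 elsewhere, and Mir758 had 171 and 134 in control, against 42 and 41 in mdx and 59 and 134 in Sirt6mKO/mdx. These calls rest on few reads: with a library left out, mmu-mir-381 was called in 0 of 6 fits (limma adjusted p 0.0547 to 0.248), Mir495 in 2, Mir758 in 3 and Mir494 in 4 for mdx and in 2 for Sirt6mKO/mdx against control. For Mir494 and Mir495 the Sirt6mKO/mdx and mdx libraries overlapped, while for Mir758 the second Sirt6mKO/mdx library reached the level of a control library. In the difference between Sirt6mKO/mdx and mdx 28 of the 40 rows were above 0, at a median of 0.82. The median over all genes was 0.02, and -0.58 under scaling to the same total.

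All 16 snoRNA rows of the domain were tested. Box C/D snoRNAs guide the modification of other RNAs and are in general cut from introns of a host RNA. In mdx 1 of 16 was called lower, beside 7.34% of all genes. This was Gm22205, with 74 and 50 in control, against 4 and 8 in mdx and 19 and 32 in Sirt6mKO/mdx (log2 -3.20, SE 0.65, limma adjusted p 0.00352). A set of 3 snoRNA genes in Sirt6mKO/mdx was called higher than in mdx and than in control, where 5.62% and 5.19% of all genes were. DQ267101 had 80 and 83 in control, against 85 and 159 in mdx and 296 and 562 in Sirt6mKO/mdx, so that both Sirt6mKO/mdx libraries exceeded the other 4 (1.80 against mdx, adjusted p 0.00713, and 2.31 against control, adjusted p 0.00114). Gm25854 had 15 and 19, 13 and 30, and 76 and 166 in the same order of groups, and AF357341 had 63 and 72, 53 and 48, and 142 and 179. DQ267101 lies within Rian and both others downstream of its annotated end, and no test of the difference between these rows and Rian was made. With a library left out, DQ267101 lost its call against mdx in 2 of 6 fits and against control in 1, Gm25854 in 4 and 2 (adjusted p up to 0.227 and 0.23), and AF357341 in 4 and all 6 (up to 0.145 and 0.317). The median log2 fold change of the 16 rows was -0.61 in mdx against control and 1.14 in Sirt6mKO/mdx against mdx. In the latter the median over all genes was 0.02, and -0.58 under scaling to the same total.

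At the far end of the domain Dio3, which inactivates thyroid hormone, had 0 to 5 in the 6 libraries, and its antisense neighbour Dio3os had 0 to 5. Neither passed the minimum mean. Gm26945, which overlaps Rian's span, and B830012L14Rik, downstream of the snoRNA rows, are long noncoding rows called lower in mdx. B830012L14Rik had 569 and 376 in control, against 65 and 162 in mdx and 54 and 171 in Sirt6mKO/mdx, and was called lower in both comparisons with control (log2 -2.16, limma adjusted p 0.00728, and -2.25, adjusted p 0.0101). Of the fits without a library, 2 of 6 lost its call for mdx, 3 that for Sirt6mKO/mdx and 4 that of Gm26945 (down to -0.72). The log2 fold change of B830012L14Rik ran over these fits from -2.81 to -1.51 for mdx and from -3.08 to -1.43 for Sirt6mKO/mdx.

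The promoter of Meg3 is shown because Rian and Mirg lie downstream of it on the same strand. The window runs from 250 bases before to 50 bases after the RefSeq start at chr12:109540746-109541045 (GRCm38.p6, plus strand), with the letters of each motif found in capitals.
Meg3 promoter: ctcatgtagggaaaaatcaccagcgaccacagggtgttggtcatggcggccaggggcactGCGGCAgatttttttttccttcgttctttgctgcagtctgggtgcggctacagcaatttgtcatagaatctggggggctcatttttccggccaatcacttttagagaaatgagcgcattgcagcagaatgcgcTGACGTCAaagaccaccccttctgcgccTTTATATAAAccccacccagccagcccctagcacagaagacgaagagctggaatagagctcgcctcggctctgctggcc
The motifs searched, on both strands, were TGCCGC, the core bound by ZFP57 when methylated, GGGGCCCC, a site of PLAGL1, TGACGTCA, the cAMP response element, and TATAAA, the TATA box. TGACGTCA was in 2 of 13 windows of 8 of the imprinted genes, the shown window of Meg3 and that of Peg3, and in 1.79% of all 32851 windows of this length. TGCCGC was in 4 of 13 (Igf2, Meg3, Plagl1 and Grb10), against 11.6%, GGGGCCCC in 1 (Peg3), against 1.08%, and TATAAA in 1 (Meg3, where matches on both strands overlap), against 13.6%. H19 and Cdkn1c were not among the promoter sequences used here, and a match describes the letters only.

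Peg3 (ENSMUSG00000002265; chromosome 7, 6703892 to 6730421, minus strand) encodes a zinc finger protein of satellite cells and was the most abundant of the 10 genes in every group by normalised count. It had 8175 and 8816 in control, against 8197 and 11488 in mdx and 16321 and 19069 in Sirt6mKO/mdx. Both Sirt6mKO/mdx libraries exceeded the other 4 in these values. Per 1000000 of the library's total they did not, since Sirt6mKO/mdx replicate 1 had 1695 and mdx replicate 2 had 2047. Peg3 was not called: it was at 0.86 against mdx (95% interval -0.05 to 1.77, limma adjusted p 0.226) and at 1.06 against control (0.14 to 1.97, adjusted p 0.145), and under scaling to the same total at 0.23 and 0.45. In mdx against control the difference was 0.19 (-0.72 to 1.10), and it turned to -0.05 without mdx replicate 2.

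Grb10 (ENSMUSG00000020176; chromosome 11, 11930508 to 12038683, minus strand), an adaptor that dampens signalling from the insulin and IGF1 receptors, had 3246 and 3724 in control, against 2867 and 2942 in mdx and 1620 and 1871 in Sirt6mKO/mdx. The groups did not overlap, and Sirt6mKO/mdx was lowest. In Sirt6mKO/mdx against control the log2 fold change was -0.997 (SE 0.27, limma adjusted p 0.0329), which passed the p but missed the fold by a small margin. It was called without control replicate 1 (-1.10) and under scaling to the same total (-1.60, limma adjusted p 0.00258). Under that scaling the median of all genes was -0.58, and 16.9% of all genes were called lower. Against mdx it was at -0.74 (95% interval -1.32 to -0.16, adjusted p 0.105), and in mdx against control at -0.26 (-0.84 to 0.32).

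In Sirt6mKO/mdx against mdx, 0 of the 10 imprinted genes were called by limma, where 8.17% of all tested genes were. At an unadjusted p under 0.05 there were 6 (Igf2, Cdkn1c, Meg3, Mirg, Plagl1 and Grb10), against 25.2% of all genes, and the libraries did not overlap for 6, against 56.0% of all genes. The median log2 fold change was -0.48, beside 0.02 over all genes. This comparison depends on the scaling: with each library scaled to the same total, the median of all genes moved to -0.58 and 4 of the 10 were called, all lower (Igf2, Cdkn1c, Plagl1 and Grb10), where 21.4% of all genes were called and 18.4% were called lower. Between Sirt6mKO/mdx and control 5 of 10 were called, against 7.87% of all genes, with H19, Igf2 and Cdkn1c higher and Dlk1 and Mirg lower. With no minimum mean 1 of the 10 was called (221 of all genes), and with 1 prior variance 0 were (87 of all genes). Under the same total 2 were called higher and 4 lower, where 2.86% and 16.9% of all genes were. The libraries did not overlap for 7, against 51.6%. Both comparisons with control share the control libraries, as both comparisons with mdx share the mdx libraries.

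**Figure D4:**
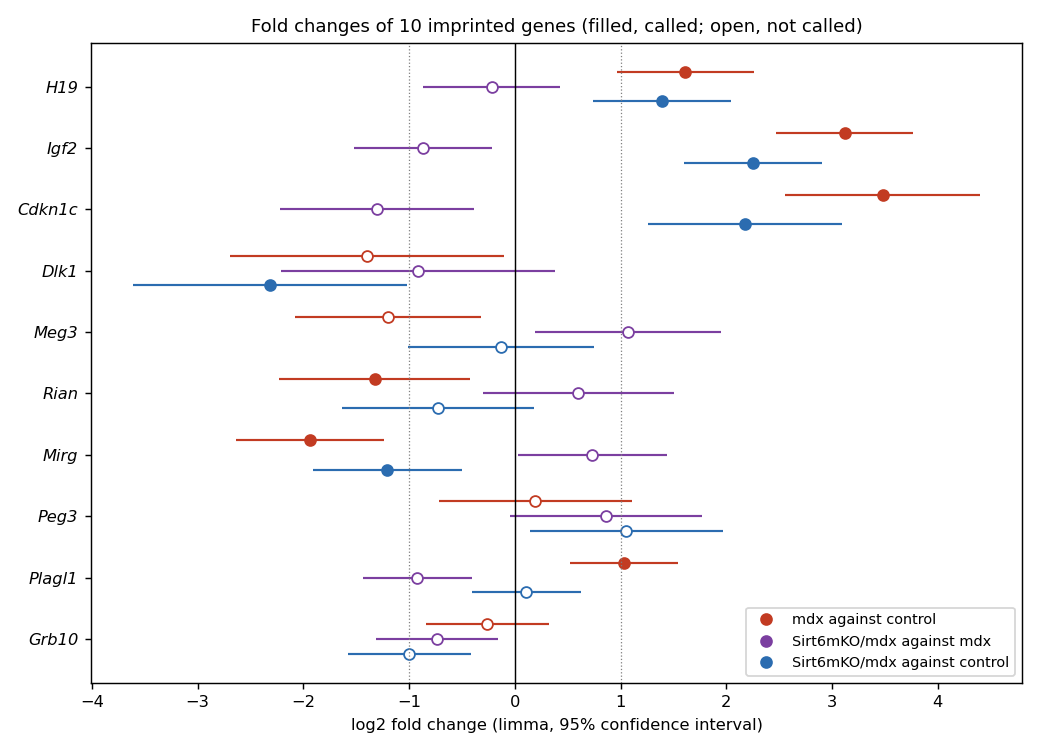
Log2 fold changes (x axis) of the 10 imprinted genes (y axis) in the 3 comparisons, with 95% confidence intervals from limma. Filled points were called, dotted lines mark a log2 fold change of 1 in size. Igf2 and Cdkn1c lie furthest to the right in mdx against control, at 3.12 and 3.48, and no point of Sirt6mKO/mdx against mdx is filled.

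Levels between genes were compared per kilobase of exons (GENCODE vM21). In control the order of mean normalised count per kilobase was Peg3 (638), H19 (414), Grb10 (383), Rian (364), Mirg (281), Meg3 (192), Igf2 (114), Plagl1 (92.0), Cdkn1c (58.1) and then Dlk1. Neighbours from H19 to Mirg overlapped between libraries, as did Plagl1 and Cdkn1c. In mdx H19 (1280) and Igf2 (1024) led, with Peg3 (739) and Cdkn1c (562) after them, and the first 3 overlapped in turn. In Sirt6mKO/mdx Peg3 (1328), H19 (1076), Igf2 (552) and Cdkn1c (243) led, and the 4 ranges from Peg3 to Cdkn1c did not overlap. The range of Cdkn1c overlapped that of Rian, the next gene. Dlk1 was last in every group.

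Of 58 further imprinted genes listed, 42 were tested, and 4 were called higher and 3 lower in mdx against control, at a median log2 fold change of 0.25. These counts are near the 6.89% and 7.34% of all genes called in each direction and are given as a description of the named genes only. Mest, a paternal gene of mesoderm, had 582 and 638 in control, against 2165 and 2002 in mdx and 885 and 1391 in Sirt6mKO/mdx, and rose in mdx (log2 1.77, SE 0.27, limma adjusted p 0.00039). Sgce, which encodes a sarcoglycan of the dystrophin complex, rose from 207 and 161 to 492 and 387 (1.25, adjusted p 0.00619), and Commd1 and Ppp1r9a rose as well (1.24 and 1.03, adjusted p 0.0449 and 0.0162). Slc22a3, a maternal transporter gene near Igf2r, had 41 and 77 in control, against 1 and 1 in mdx and 12 and 11 in Sirt6mKO/mdx and fell in mdx (-4.84, SE 0.80, adjusted p 0.0008, a size that depends on the pseudocount), as did Asb4 (-3.00, adjusted p 0.0288) and Rtl1. In the 6 fits that each left out a library, Mest, Slc22a3 and Rtl1 kept these calls in all 6 and Sgce in 5. Commd1 was lost in 5, Asb4 in 4 and Ppp1r9a in 3. The log2 fold change of Asb4 ran from -3.79 to -2.21 over these fits. In both other comparisons Rtl1 was the gene called, and the list shares Rtl1 and Dio3 with the rows above.

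Of 17 factors that keep imprints or act on the chromatin of imprinted genes, 16 were tested and 3 rose in mdx, Ehmt2, Uhrf1 and Hells, where 6.89% of all genes were called higher. Ehmt2, a histone H3 lysine methyltransferase, had 1085 and 835 in control, against 2206 and 4898 in mdx and 4680 and 9619 in Sirt6mKO/mdx (log2 1.79 in mdx, SE 0.40, limma adjusted p 0.0068, and 2.82 in Sirt6mKO/mdx against control, adjusted p 0.00043). Uhrf1, which brings DNMT1 to replicating DNA, rose from 24 and 29 to 66 and 121 (1.72, adjusted p 0.0348), and Hells rose at 1.38 (adjusted p 0.0274). With a library left out, the call of Uhrf1 was lost in 5 of 6 fits, that of Hells in 4 and that of Ehmt2 in 2. The DNA methyltransferase Dnmt1 had 211 and 357, 248 and 440, and 268 and 182 in the 3 groups and was not called, nor were Zfp57, Zfp445, Trim28 and Ctcf. The median log2 fold change of this list was 0.29 in mdx against control and -0.22 in Sirt6mKO/mdx against mdx.

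Of 6 receptors of IGF2 and proteins that bind its mRNA, all were tested, and 2 were called lower in mdx against control and 1 higher in Sirt6mKO/mdx against mdx, beside 7.34% and 5.62% of all genes. Igf2bp2, an mRNA-binding protein of muscle precursors, had 350 and 244 in control, against 41 and 107 in mdx and 314 and 400 in Sirt6mKO/mdx. It fell in mdx (log2 -2.12, SE 0.38, limma adjusted p 0.00168) and was higher in Sirt6mKO/mdx than in mdx (2.40, SE 0.38, adjusted p 0.0013). With a library left out, the fall ran from -2.80 to -1.44 and stayed called, and the difference from mdx ran from 1.72 to 3.08 and was lost without Sirt6mKO/mdx replicate 2. Igf2bp3 fell in mdx from 57 and 33 to 3 and 6 (-3.07, SE 0.74, adjusted p 0.0109), a call lost without control replicate 1 or mdx replicate 1. The receptors Igf1r (1024 and 938 in control, 431 and 676 in mdx) and Igf2r (3636 and 5010 in control, 3083 and 3422 in mdx) were not called.

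Markers of other cell types are given by their summed level. The sort removed cells with Sca1 (encoded by Ly6a), CD45 (Ptprc) and CD31 (Pecam1), and so should have depleted fibro-adipogenic, blood and endothelial cells. Fibro-adipogenic markers, 12 of 12 tested, had summed levels of 28605 and 35074 in control, against 49081 and 41302 in mdx and 26983 and 36334 in Sirt6mKO/mdx, most of it from Col3a1, Gsn and Dpt, and Col1a2, Ly6a and Col1a1 rose in mdx (3 of 12, beside 6.89% of all genes). Col1a1 was called lower in Sirt6mKO/mdx than in mdx, and with a library left out this call and the rise of Ly6a were each lost in 4 of 6 fits. In Sirt6mKO/mdx against control Col1a2 was called higher. Pdgfra, which defines these cells, had 15 and 59 in control, against 195 and 18 in mdx and 142 and 19 in Sirt6mKO/mdx, so that replicate 1 of both mutant groups stood apart. Without mdx replicate 1, Igf2, Cdkn1c and Mirg kept their calls in mdx against control, and H19, Plagl1 and Rian lost theirs. Fewer of all genes were called in that fit too. The part of these cells in the values of the 10 genes was not tested. Myofibre markers, 8 of 8 tested, summed to 7054 and 8870 in control, against 4987 and 1503 in mdx and 10667 and 4896 in Sirt6mKO/mdx, and 4 fell in mdx (Myh2, Myh1, Acta1 and Ckm, beside 7.34% of all genes). Myh2, Myh1 and Acta1 were called higher in Sirt6mKO/mdx than in mdx (beside 5.62%), a direction that most rows of the Dlk1-Dio3 domain had too. Within each group, though, the library with the higher sum of myofibre markers had the lower Meg3, Rian and Mirg. Over the fits without a library, Ckm lost its fall in 4 of 6, Acta1 in 3 and Myh1 in 1, and the rises were lost in 3, 3 and 4. The part of fibres in the values of Rian, Mirg and the domain's other rows was not tested. In bulk RNA, fewer cells of a type and less RNA per cell cannot be told apart.

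For the markers that follow, the shares of all genes called are 6.89% higher and 7.34% lower in mdx against control, and 5.62% higher in Sirt6mKO/mdx against mdx. Endothelial markers summed to 943 and 787 in control, against 417 and 434 in mdx and 641 and 649 in Sirt6mKO/mdx, mostly Tek, and Kdr and Pecam1, 2 of 6 tested, were called lower in mdx, Kdr in none of the 6 fits without a library and Pecam1 in 4. Leukocyte markers summed to 105 to 241, with Ptprc at 0 in both control libraries and 3 to 19 elsewhere. Of 5 tested, Lyz2 was called higher and Cd68 lower in mdx, calls lost in 5 and 4 of those 6 fits. Lyz2 was also called higher in Sirt6mKO/mdx against control, where 5.19% of all genes were, a call lost in most of those fits. Smooth muscle and pericyte markers summed to 4601 to 9105, with Acta2 called higher and Abcc9 lower in mdx of 8 tested, lost in 4 and 3 fits. Among them Notch3 was called lower in Sirt6mKO/mdx against control (2.68% of all genes called lower), lost in 4 fits. Schwann cell markers summed to 469 to 1123, mostly Pmp22. Erythroid markers summed to 7 to 91, and of 2 tested Hbb-bs was called higher in Sirt6mKO/mdx against mdx, lost in 4 fits.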

How the data were processed

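The authors sequenced rRNA-depleted total RNA of sorted MuSCs on an Ion Torrent instrument, aligned with STAR (2.4.2a in the submitters' notes) to mm10 and counted with featureCounts (1.4.5-p1), leaving out reads on more than 1 gene. The deposited values are a score: whole numbers that behave as read counts divided by a DESeq2-type size factor and rounded by the authors. As they are no longer raw counts, limma (3.58.1, R 4.3.3, trended prior) took the place of the authors' DESeq2 test. Values were tested as log2(value + 1) where a gene reached a mean of 5, all 6 libraries in 1 fit, two-sided, with Benjamini-Hochberg adjustment over 15915 genes. A gene was called at an adjusted p of at most 0.05 and a log2 fold change of at least 1 in size, the study's own limits. Size factors of 0.537 to 1.53 were estimated from the steps of low values, and the reads given come from them; they cover counting error only. Exonic lengths are from GENCODE vM21, matched to 98.53% of genes. Methods were tested on simulated data first.

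All 10 genes are named, and of each list and of the rows by position the called genes, at most 4 in each direction per list and comparison, with the most abundant or defining markers. The genes and lists were chosen with earlier results of these data known, so no set test and no p over a list alone was made. Alternatives were other pseudocounts, minimum means, scalings and prior variances, a replicate block, and leaving out each library. Of the 58 other imprinted genes listed, 10 were not analysed here.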

Additional observations from a re-analysis of the deposited data

How the results depend on the processing

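Over all alternatives, 374 of 447 values of the 10 imprinted genes kept their direction and their side of the thresholds, 44 lost a call, 19 gained one and 10 changed direction. For other named genes, 818 of 1167 were the same and 349 lost a call. The turned values all belong to differences that were not called: Peg3 in mdx against control (-0.0506 to 0.4363 without a library, below 0 without mdx replicate 2), H19 in Sirt6mKO/mdx against mdx (-0.5589 to 0.1189 without a library, above 0 without mdx replicate 1), Rian there (-0.0263 under the same total, -0.0192 to 1.2217 without a library, below 0 without Sirt6mKO/mdx replicate 2), and, against control, Meg3 (-0.4388 to 0.1756 without a library, above 0 without control replicate 1 or Sirt6mKO/mdx replicate 1) and Plagl1 (-0.50 under the same total, -0.18 under the same total without the 10 most abundant genes, -0.02 to 0.2349 without a library, below 0 without control replicate 1 or Sirt6mKO/mdx replicate 2).

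In mdx against control, where 2265 genes were called as reported, 989 were called with no minimum mean and 541 with 1 prior variance, and 921 to 2326 without a library. Of the 10 genes, 1 was called with 1 prior variance and 3 to 6 without a library, and of the Dlk1-Dio3 rows 4 with no minimum mean, 7 with a minimum mean of 50, 2 with 1 prior variance and 3 to 14 without a library. In Sirt6mKO/mdx against mdx, where 1300 genes were called as reported, 168 were called with no minimum mean, 3411 under the same total (479 higher, 2932 lower), 2572 without the 10 most abundant genes in the total (551 higher, 2021 lower), 0 with limma and 1 prior variance (3156 at an unadjusted p under 0.05) and 252 to 1541 without a library. Of the 10 genes, 4 were called under either total and 0 to 1 without a library, and of the Dlk1-Dio3 rows 0 with no minimum mean, 2 under the same total, 0 with 1 prior variance and 0 to 5 without a library. In Sirt6mKO/mdx against control, where 1253 genes were called as reported, 221 were called with no minimum mean, 3147 under the same total (455 higher, 2692 lower), 87 with 1 prior variance and 212 to 1416 without a library. Of the 10 genes, 1 was called with no minimum mean, 0 with 1 prior variance and 2 to 4 without a library, and of the Dlk1-Dio3 rows 0 with no minimum mean, 19 under the same total (2 higher, 17 lower), 0 with 1 prior variance and 1 to 4 without a library. The cause of these shifts was not tested. Scaling to the same total brought the median log2 fold change of all genes to 0.03, -0.58 and -0.58 in the 3 comparisons, and the total without the 10 most abundant genes, a choice made after seeing the data, to 0.17, -0.42 and -0.28. A fit without a library leaves its group with 1, which is assumed to vary like the other groups.

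The deviations of libraries with the same replicate number correlated at -0.13, 0.12 and 0.01 between the groups. With 2 libraries a group, this cannot tell whether the replicate numbers pair the libraries. With the replicate number as a block, 2415, 1510 and 1404 genes were called in the 3 comparisons, and 7, 1 and 5 of the 10 imprinted genes, Meg3 in mdx (-1.20) and Cdkn1c against mdx (-1.30) being added. Of the Dlk1-Dio3 rows, 18, 6 and 9 were called.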
